A study of Mus musculus with 12 samples.

Results

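The nuclear genes for the subunits of mitochondrial complex I were followed in mouse hematopoietic stem cells cultured with or without nicotinamide riboside (NR), a vitamin B3 compound and precursor of NAD, the electron carrier that complex I restores from its reduced form NADH. The genes were taken by symbol alone: every gene whose symbol begins with Ndufa, Ndufb, Ndufc, Ndufs or Ndufv and a digit, and Ndufab1, leaving out symbols with -ps and the assembly factors. This gave 41 of the 53465 genes in the count table, and 37 of them had enough counts to be tested. Of the other 4, Ndufa11b, Ndufb4c and Ndufs6b are processed pseudogenes in GENCODE M21, a mouse gene annotation, and Ndufa4l2, a paralog of Ndufa4, had at most 4 counts in any library.

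The RNA came from bone marrow cells sorted as lineage-negative, Kit- and Sca1-positive, CD150-positive and CD48-negative. Long-term stem cells (LT-HSCs) lacked CD34 and short-term stem cells (ST-HSCs) carried it. Both were grown for 2 days in Stemline II medium with SCF at 100 ng/ml and Flt3 ligand at 2 ng/ml, without NR (control) or with 1 mM NR that was renewed after 24 h, and each of the 4 groups had 3 samples. The labels give no strain, age, sex or genotype, and do not say whether samples came from separate mice or cultures, so the p-values speak of the variation among these libraries alone, part or all of which could be technical.

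Complex I is the entry point of electrons from NADH into the respiratory chain. It oxidises NADH back to NAD, passes the electrons along a flavin and iron-sulfur clusters to ubiquinone, and pumps protons across the inner mitochondrial membrane. Its matrix arm holds the redox centres, its membrane arm holds the proton pumps, and it is built from nuclear subunits together with core subunits encoded in mitochondrial DNA. Resting hematopoietic stem cells are known for leaning on glycolysis, with respiration rising as they divide and differentiate.

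Between 24.6 M and 35.5 M counts per library fell on genes (median 31.7 M). Reads matched to no gene feature in the counting (the unassigned share) made up 8.69% to 28.5% of a library. The third sample of both NR groups had the most, 28.5% in LT-HSCs and 26.2% in ST-HSCs, and the other libraries reached at most 16.99%. The counting settings were not given, so where in the genome these reads lie is not known here. Cd34, the gene that separates the sorts, had 259 ± 11.5 CPM in control LT-HSCs and 627 ± 18.8 in control ST-HSCs (mean ± SD, n = 3). CPM is counts per 1 M gene counts after scaling by edgeR's TMM factors. The bulk measurement cannot tell apart fewer cells of a type and less RNA per cell.

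The tested complex I genes lie on 15 chromosomes, 2 of them on X, and all are protein-coding in GENCODE M21. Mean levels over the 12 libraries ran from 13.9 CPM for Ndufb4 to 342 CPM for Ndufa4. Per kilobase of annotated exon, control LT-HSC levels ran from 6.07 CPM for Ndufb2 to 263 CPM for Ndufa4, with a median of 78.2. The lowest count of any of the 37 in any library was 344. Exons of 6 of them overlap another gene over more than 10% of their length: Ndufa13 (Tssk6), Ndufa2 (Tmco6), Ndufb11 (Rbm10), Ndufb5 (Mrpl47), Ndufb6 (Smim27) and Ndufb9 (Gm49356). The counts over the shared bases cannot be assigned to 1 gene of a pair here, so the levels of these 6 are less certain.

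Because nearly all of these genes moved the same way with NR, as described below, their promoters were searched for motifs of factors known from nuclear genes of respiration. The sequences are RefSeq's for GRCm38.p6, from 250 bases before to 50 bases after the start of each gene, and 33 of the 37 tested genes had one. Both strands were searched for exact letters: NRF1 (GCATGCGC), ETS factors such as GABPA (CCGGAAG), YY1 (AAGATGGC), estrogen-related receptors (TCAAGGTCA), CREB (TGACGTCA), the E-box (CACGTG) and SP/KLF factors (GGGCGG). None of these letter strings lies inside another. The YY1 letters stood in 7 of the 33 complex I promoters (21.2%), in 4.55% of 12790 promoters of tested genes and in 3.19% of all 27025 promoters. Nuclear subunits of complexes II to V, which also fell with NR (below), had them in 2 of 30 promoters (6.67%). Whether any motif relates to the change with NR was not tested. All 7 copies in complex I genes read in the direction of the gene, 23 to 39 bases after the RefSeq start. They are shown as 30-base stretches, 5′ to 3′ on the gene's strand, with the motif in capitals, because the same letters sit at nearly the same place in 7 subunit genes.

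Ndufa3: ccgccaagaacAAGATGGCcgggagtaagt
Ndufa9: cattgtgggagAAGATGGCggccgccgtcc
Ndufb8: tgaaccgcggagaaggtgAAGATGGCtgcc
Ndufc1: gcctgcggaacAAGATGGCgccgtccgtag
Ndufs4: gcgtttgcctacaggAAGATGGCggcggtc
Ndufs6: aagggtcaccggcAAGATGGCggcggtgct
Ndufs7: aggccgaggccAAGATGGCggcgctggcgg

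These stretches lie on GRCm38 for Ndufa3 at chr7:3617384-3617413 (plus strand), Ndufa9 at chr6:126849097-126849126 (minus strand), Ndufb8 at chr19:44555393-44555422 (minus strand), Ndufc1 at chr3:51408915-51408944 (minus strand), Ndufs4 at chr13:114388045-114388074 (minus strand), Ndufs6 at chr13:73328433-73328462 (minus strand), Ndufs7 at chr10:80249462-80249491 (plus strand). In all 7 the ATG inside the motif is an annotated GENCODE M21 start codon, so the capitals straddle the end of the 5′ UTR and the first codons. Among all tested genes with the YY1 letters, the ATG was on the gene's start codon in 162 of 582 (27.8%). A factor's motif and the sequence around a start codon cannot be told apart here.

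The other motifs were counted in the same way. The NRF1 letters stood in 3 of 33 promoters (9.09%, against 5.21% of tested genes), the CREB letters in 3 (9.09% against 3.21%) and the ETS letters in 4 (12.1% against 17.3%). The E-box stood in 2 (6.06% against 10.95%), the SP/KLF letters in 15 (45.5% against 62.5%) and the receptor letters in 0 (against 0.305%). Of the 30 promoters of complex II to V subunits, 8 held the NRF1 letters (26.7%) and 12 the ETS letters, larger shares than in complex I. The E-box, in 3 of these 30, and the receptor letters, in 2 (6.67%), also had larger shares there. The CREB letters (6.67%) and the SP/KLF letters (33.3%) had smaller shares there than in complex I. NRF1 and GABPA are the textbook regulators of nuclear respiratory genes, so the stretches with their letters are shown, NRF1 in the first 3 lines and ETS in the last 4. In Ndufb6 and Ndufs8 the ETS letters are on the opposite strand, and the capitals are their reverse complement. Further matches on the opposite strand, not printed, are of ETS in Ndufs3, from base 2 after the start, and of NRF1 in Ndufa11, from 60 bases before it.

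Ndufa6: tccgcggtagaGCATGCGCattgcagagcc
Ndufa8: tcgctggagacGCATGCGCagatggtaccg
Ndufa11: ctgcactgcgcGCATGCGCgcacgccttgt
Ndufb7: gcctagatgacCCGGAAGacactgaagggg
Ndufs3: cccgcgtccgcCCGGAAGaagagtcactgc
Ndufs8: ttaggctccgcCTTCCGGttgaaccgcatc
Ndufb6: tcgtccttgttCTTCCGGtcccctccccta

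These stretches lie on GRCm38 for Ndufa6 at chr15:82354356-82354385 (minus strand), Ndufa8 at chr2:36049328-36049357 (minus strand), Ndufa11 at chr17:56717693-56717722 (plus strand), Ndufb7 at chr8:83566727-83566756 (plus strand), Ndufs3 at chr2:90904730-90904759 (minus strand), Ndufs8 at chr19:3912741-3912770 (minus strand), Ndufb6 at chr4:40279635-40279664 (minus strand). For 2 genes that fell in both cell types, the core subunit Ndufv2 and the accessory subunit Ndufa9, the full 250 bases before the RefSeq start hold no annotated exon and are printed, with any motif in capitals. They lie on the minus strand of GRCm38 at chr17:66101560-66101809 for Ndufv2 and chr6:126849145-126849394 for Ndufa9.

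Ndufv2: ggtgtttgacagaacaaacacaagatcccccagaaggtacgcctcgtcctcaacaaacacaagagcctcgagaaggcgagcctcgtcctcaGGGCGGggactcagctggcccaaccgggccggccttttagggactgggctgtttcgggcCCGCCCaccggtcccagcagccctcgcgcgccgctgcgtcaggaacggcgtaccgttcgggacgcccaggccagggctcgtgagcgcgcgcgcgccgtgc
Ndufa9: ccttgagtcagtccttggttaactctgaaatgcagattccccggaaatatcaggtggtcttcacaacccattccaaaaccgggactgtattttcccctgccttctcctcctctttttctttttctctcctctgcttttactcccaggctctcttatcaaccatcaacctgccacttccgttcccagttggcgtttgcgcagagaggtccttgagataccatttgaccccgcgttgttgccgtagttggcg

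The Ndufv2 stretch holds the SP/KLF letters 159 and 100 bases before the start, the second copy on the opposite strand, and the Ndufa9 stretch holds none of the 7 motifs. Ndufa9 carries its YY1 letters after the start, as printed above. A match is a description of letters and says nothing on whether a factor binds.

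With NR, all 37 tested complex I genes had a lower level than in control, in LT-HSCs and in ST-HSCs alike, and the falls were small. Averaged over both cell types, 32 of the 37 were lower at an adjusted p under 0.05 and 0 were higher (edgeR quasi-likelihood test, Benjamini-Hochberg adjustment over all 19830 genes tested). Across all genes tested, 16.1% were called lower and 7.88% higher in this comparison. The median log2 change of the complex I genes was -0.29, against 0.03 for all genes tested and -0.07 for the 8459 genes whose mean level lay within the range of the complex I genes, of which 29.3% were called lower. On the fitted scale Ndufa1 fell by 27.7%, the median of the 37 was -18.4%, and Ndufb11, which was not called, changed by -6.23%.

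In LT-HSCs 21 of the 37 were called lower and 0 higher, where 7.58% and 2.38% of all genes were called. In ST-HSCs 18 were called lower and 0 higher, where 11.1% and 5.82% of all genes were called. Of the genes within the complex I genes' range of mean level, 14.2% were called lower in LT-HSCs and 20.1% in ST-HSCs. The median change of the complex I genes was -0.32 in LT-HSCs and -0.28 in ST-HSCs, beside 0.04 and -0.03 for all genes tested. Called in both were 16 complex I genes, in LT-HSCs but not in ST-HSCs Ndufb10, Ndufb4, Ndufb8, Ndufs7 and Ndufs8, 2 in ST-HSCs but not in LT-HSCs, among them Ndufv1, and in neither 14. Across the 37 genes the 2 changes went together (Pearson r = 0.82, Spearman rho = 0.76), as a description over genes of the same libraries. The averaged change had no such relation with the mean level (r = -0.07).

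**Figure D1:**
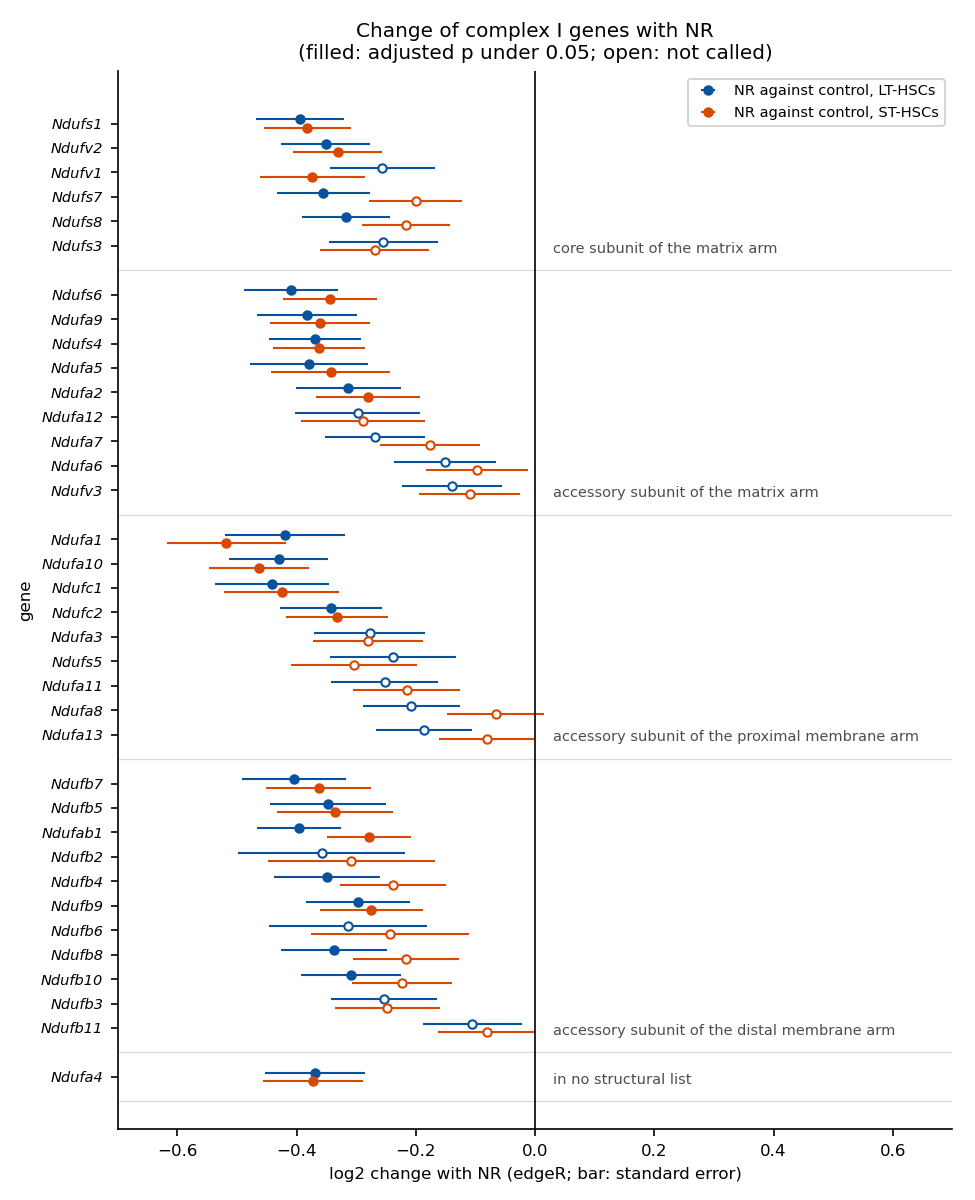
Log2 change with NR (x axis) of 36 tested complex I genes (y axis, grouped by arm), blue in LT-HSCs and orange in ST-HSCs, with the standard error as bars and filled points for adjusted p under 0.05 (edgeR). Every point lies left of 0, from -0.52 for Ndufa1 to -0.07 for Ndufa8, both in ST-HSCs.

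The groups were also compared by overlap. All 3 NR samples lay below all 3 controls for 28 of the 37 genes in LT-HSCs (75.7%, against 15.9% of all genes tested) and for 31 in ST-HSCs (83.8% against 20.9%). Among the 8459 genes within the complex I genes' range of mean level it was 26.6% and 35.3%. For 23 complex I genes all 6 NR samples lay below all 6 controls (62.2%). This held for 7.94% of all genes tested and 14.9% of the genes in that range. Same-numbered LT-HSC and ST-HSC libraries with NR deviated together (correlations of 0.15 to 0.84), so these 6 samples may not be independent. Within a library the genes moved as a block: the median of the 37 genes, relative to the controls of the same cells, was -0.39, -0.15 and -0.42 in NR LT-HSC samples 1 to 3 and -0.25, -0.22 and -0.41 in NR ST-HSC samples 1 to 3. The 6 control libraries lay between -0.06 and 0.09. NR LT-HSC sample 2 was thus nearest to its controls. The sample 3 libraries of both cell types, those with the most reads matched to no gene feature, were farthest.

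**Figure D2:**
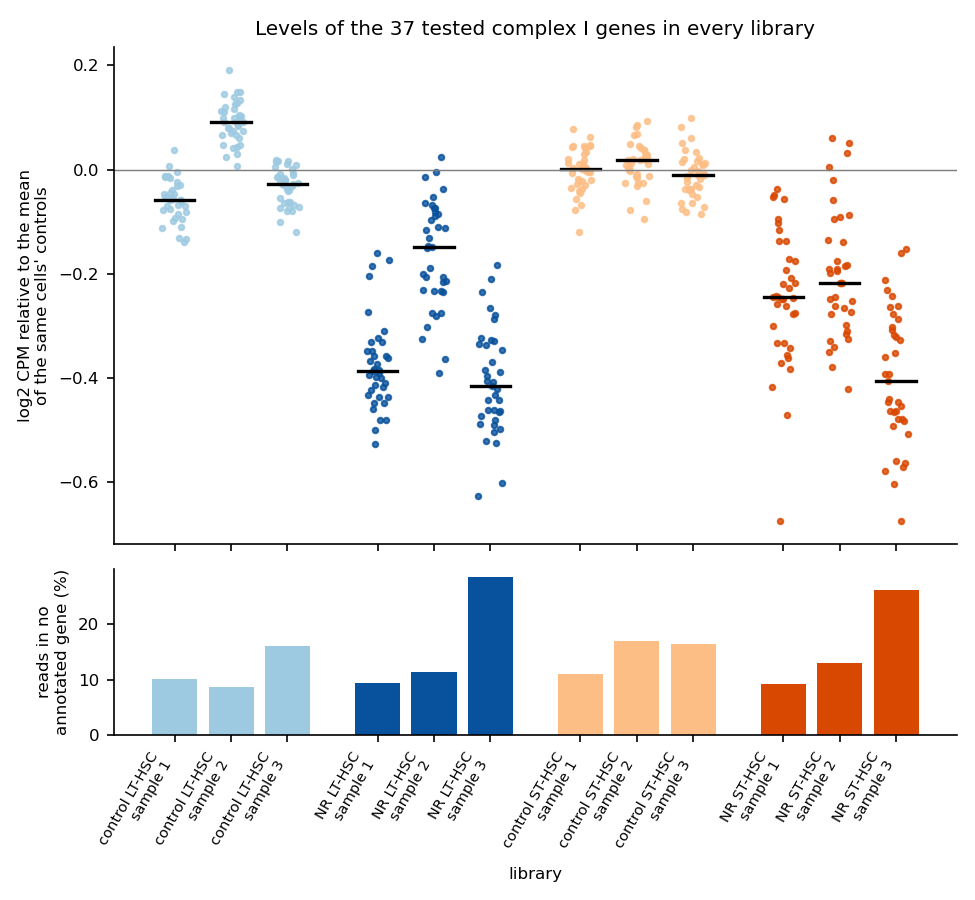
Upper panel: log2 CPM of each of the 37 tested complex I genes (points) in each library, relative to the mean of the controls of the same cells, with the library's median as a black line. Lower panel: percentage of each library's reads that were matched to no gene feature in the counting. All 6 NR medians lie below all 6 control medians, and the bars are tallest in sample 3 of both NR groups, at 28.5% and 26.2%.

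The comparisons were repeated without the 2 NR libraries with a high unassigned share. This also left fewer NR samples, so the unassigned share and the smaller groups cannot be told apart in these counts. With the same genes tested, 20 of the 37 were then called lower in the averaged comparison, 12 in LT-HSCs and 3 in ST-HSCs. The median changes were -0.19, -0.26 and -0.15. The share of all genes called lower was then 10.6%, 4.42% and 6.198%. With the unassigned share as a covariate the counts were 32, 20 and 25, where 17.7%, 8.38% and 13.7% of all genes were called lower. In ST-HSCs 32 of the 37 changes were still below 0 without the 2 libraries. Summed over the complex I genes with no TMM scaling, their share of all gene counts was 0.423% ± 0.017 in control LT-HSCs and 0.363% ± 0.022 with NR, and 0.414% ± 0.005 and 0.367% ± 0.015 in ST-HSCs (mean ± SD, n = 3).

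The nuclear core subunits carry the flavin and the iron-sulfur clusters. Of these Ndufs1 and Ndufv2 fell most in the average. Ndufs1 (chr1:63143596-63176833, minus strand) is the largest subunit and holds several iron-sulfur clusters. Ndufs1 stood at 179, 179.8 and 165 CPM in control LT-HSC samples 1 to 3 and at 137, 133 and 129 with NR, and at 173, 182 and 176 in control ST-HSCs and 144, 144 and 119.7 with NR. No NR sample of either cell type reached any control sample. The averaged log2 change was -0.39 ± 0.05 (SE, edgeR adjusted p = 0.000138). Ndufv2 (chr17:66078638-66101559, minus strand) holds an iron-sulfur cluster beside the flavin subunit. Ndufv2 stood at 195, 217 and 202 CPM in control LT-HSC samples 1 to 3 and at 155, 177 and 148 with NR, and at 204, 208 and 203 in control ST-HSCs and 169, 169 and 150.4 with NR. Here too the 6 NR samples lay below the 6 controls, and the averaged change was -0.34 ± 0.05 (edgeR adjusted p = 0.000400).

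Other core genes moved less in the average. Ndufv1, which binds the flavin and takes the electrons from NADH, had 206 ± 11.9 CPM in control LT-HSCs and 172 ± 22.8 with NR, a change of -0.26 that was not called (edgeR adjusted p = 0.0912). In ST-HSCs it fell by 0.37, from 211 ± 11.3 to 163 ± 8.77 (edgeR adjusted p = 0.0100). Ndufs7 and Ndufs8, which hold the last clusters before ubiquinone, showed the opposite order: both fell in LT-HSCs, by 0.35 and 0.32, and were not called in ST-HSCs (-0.20 and -0.22, edgeR adjusted p = 0.104 and 0.0634). Ndufs3, a structural core subunit of the matrix arm, was called in neither alone (-0.25 and -0.27) and in the average (-0.26, edgeR adjusted p = 0.00941). With the sample number as a block, which pairs the LT-HSC libraries, Ndufv1 and Ndufs3 were called lower in LT-HSCs as well (-0.26 for both, edgeR adjusted p = 0.0142 and 0.0361). Whether the change of a single core gene differed between the cell types was tested, and none passed, as given below.

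Of the 9 accessory subunits of the matrix arm, 7 were called lower in the averaged comparison, with a median of -0.30. Ndufs6, a subunit with a zinc site that is needed late in assembly, and Ndufa9, which sits near the ubiquinone site, fell most. Ndufs6 stood at 86.1, 91.5 and 83.1 CPM in control LT-HSC samples 1 to 3 and at 63.1, 71.7 and 61.5 with NR, and at 82.6, 87.2 and 87.9 in control ST-HSCs and 72.4, 67.8 and 62.7 with NR. The controls of both cell types stood between 82.6 and 91.5 CPM and no NR sample was above 72.4. The averaged change of Ndufs6 (chr13:73319838-73328542, minus strand) was -0.38 ± 0.06 (edgeR adjusted p = 0.000280). Ndufa9 stood at 142, 156 and 145 CPM in control LT-HSC samples 1 to 3 and at 111, 126 and 103 with NR, and at 149, 136 and 150.2 in control ST-HSCs and 115, 120.0 and 104 with NR. NR and control samples of Ndufa9 (chr6:126821721-126849136, minus strand) did not overlap, and its averaged change was -0.37 ± 0.06 (edgeR adjusted p = 0.000491). Ndufs4, whose loss in mice is a model of Leigh syndrome, was close to them at -0.37.

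Ndufa6 and Ndufv3 were the 2 of this arm that were not called. Ndufa6 had 83.7 ± 7.41 CPM in control LT-HSCs and 75.3 ± 3.99 with NR, and 86.6 ± 3.68 and 80.9 ± 7.66 in ST-HSCs. Its averaged change of -0.12 ± 0.06 had an edgeR adjusted p of 0.178. Ndufv3, a small subunit beside the flavin subunits, changed by -0.12 ± 0.06 (edgeR adjusted p = 0.170), and, as for Ndufa6, its NR and control values overlapped in both cell types.

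In the proximal membrane arm, 7 of 9 accessory subunits were called lower in the averaged comparison, and 3 of the falls were the largest of all complex I genes. Ndufa1 is a small X-linked subunit at chrX:37187588-37191163, minus strand. Ndufa1 stood at 75.0, 79.1 and 78.4 CPM in control LT-HSC samples 1 to 3 and at 54.8, 68.0 and 51.1 with NR, and at 82.6, 87.0 and 86.2 in control ST-HSCs and 61.5, 63.7 and 53.4 with NR. All 6 NR samples lay below all 6 controls, with NR LT-HSC sample 2 nearest to them. The averaged change was -0.47 ± 0.07 (edgeR adjusted p = 0.000331), with -0.42 in LT-HSCs and -0.52 in ST-HSCs. Ndufa10 (chr1:92439010-92473860, minus strand) encodes a subunit related to nucleoside kinases. Ndufa10 stood at 148, 154 and 146 CPM in control LT-HSC samples 1 to 3 and at 115, 121 and 96.7 with NR, and at 157, 152 and 152 in control ST-HSCs and 115, 118 and 101 with NR. Again the groups did not overlap, and the averaged change was -0.45 ± 0.06 (edgeR adjusted p = 0.000121). Ndufc1 followed at -0.43 ± 0.07, from 72.7 ± 6.69 to 53.5 ± 5.52 CPM in LT-HSCs and from 69.8 ± 2.72 to 51.9 ± 4.57 in ST-HSCs (edgeR adjusted p = 0.000450).

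Ndufa8 and Ndufa13 were not called in this arm. Ndufa8, a twin-cysteine subunit of the intermembrane space side, had 125, 130.1 and 125 CPM in control ST-HSCs and 123, 127 and 113 with NR, which overlap. Its change was -0.07 ± 0.08 in ST-HSCs, the smallest of the 37 there, and -0.21 ± 0.08 in LT-HSCs (edgeR adjusted p = 0.767 and 0.145). The sign in ST-HSCs turned with the scaling, to 0.01 with relative log expression factors. Ndufa13, also known as GRIM-19, shares 29.98% of its exon length with Tssk6 and changed by -0.08 ± 0.08 in ST-HSCs and -0.19 ± 0.08 in LT-HSCs (edgeR adjusted p = 0.657 and 0.191).

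In the distal membrane arm, 10 of 11 accessory subunits were called lower in the averaged comparison, with a median of -0.29. Ndufb7 and Ndufb5 fell most. Ndufb7 stood at 123, 146 and 137 CPM in control LT-HSC samples 1 to 3 and at 96.8, 115 and 95.2 with NR, and at 132, 127 and 128 in control ST-HSCs and 98.9, 108 and 93.5 with NR. No NR sample reached the lowest control of its cell type. The averaged change of Ndufb7 (chr8:83566671-83571626, plus strand) was -0.38 ± 0.06 (edgeR adjusted p = 0.000556). Ndufb5 stood at 85.6, 95.0 and 90.4 CPM in control LT-HSC samples 1 to 3 and at 69.0, 78.6 and 65.4 with NR, and at 95.0, 93.9 and 87.6 in control ST-HSCs and 77.7, 79.2 and 62.0 with NR. The groups of Ndufb5 (chr3:32736990-32751566, plus strand) did not overlap, its exons share 12.3% of their length with Mrpl47 on the other strand, and the averaged change was -0.34 ± 0.07 (edgeR adjusted p = 0.00262).

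Ndufab1, the mitochondrial acyl carrier protein that also serves fatty acid synthesis and iron-sulfur cluster assembly, had a small spread. Ndufab1 stood at 61.9, 66.4 and 61.5 CPM in control LT-HSC samples 1 to 3 and at 45.3, 52.0 and 46.9 with NR, and at 60.4, 60.8 and 58.3 in control ST-HSCs and 49.9, 48.3 and 49.9 with NR. It fell by 0.40 in LT-HSCs and 0.28 in ST-HSCs (edgeR adjusted p = 0.00367 and 0.0155). Ndufb11, X-linked and overlapped by Rbm10 over 12.9% of its exons, was the 1 gene of this arm that was not called: 98.3 ± 5.11 CPM in control LT-HSCs against 91.4 ± 7.36 with NR, and 96.1 ± 3.83 against 90.9 ± 8.71 in ST-HSCs. Its averaged change of -0.09 ± 0.06 was the smallest of the 37 (edgeR adjusted p = 0.325). Ndufb4 and Ndufs5, with the fewest counts of the tested genes, changed by -0.29 and -0.27, close to the median.

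**Figure D3:**
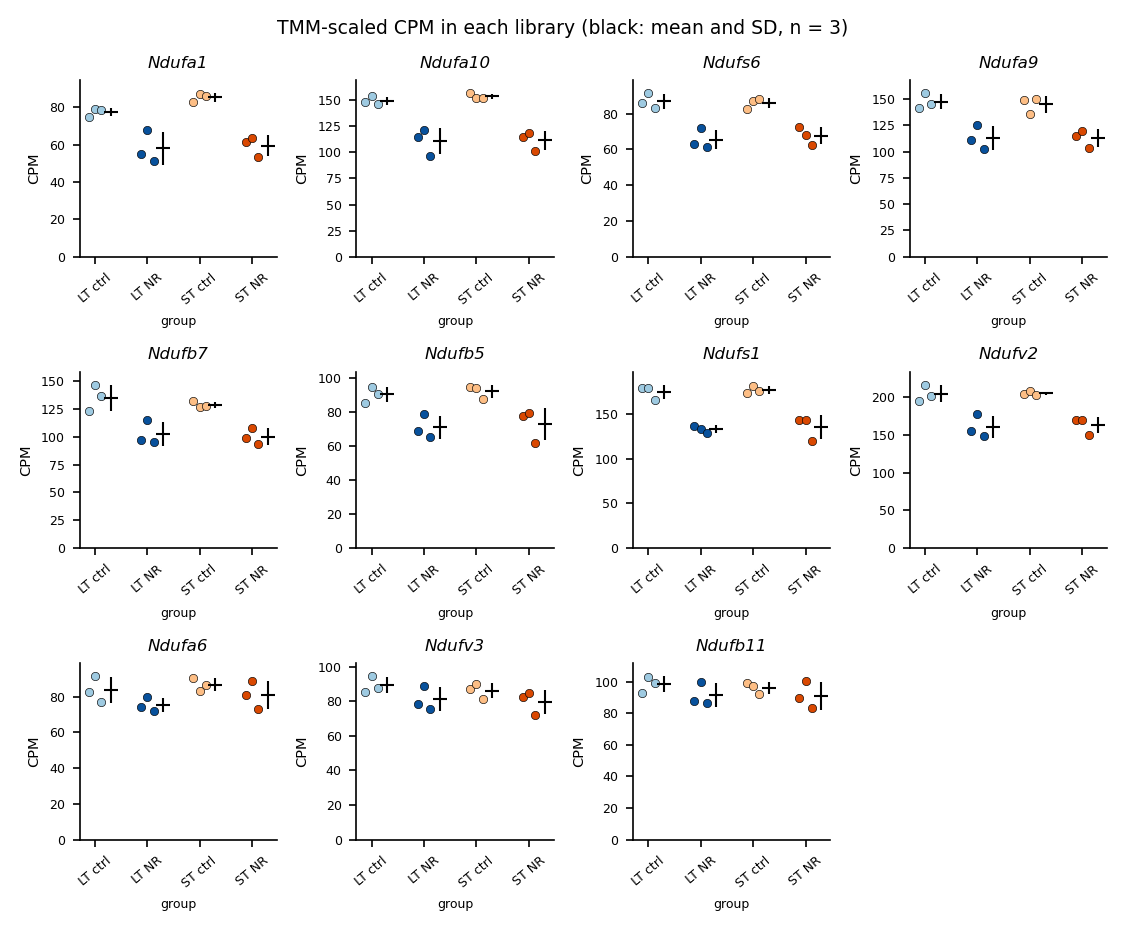
TMM-scaled CPM (y axes, each from 0) in each library of 11 complex I genes: the 2 with the largest averaged fall in each arm, and Ndufa6, Ndufv3 and Ndufb11, whose averaged changes were the smallest. Colored points are libraries, and black marks give mean and SD (n = 3). In the first 8 panels NR points lie below the control points of the same cells, and in the last 3 they overlap.

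Ndufa4 was placed in none of the arms, since it is now counted as a subunit of complex IV. It was the most abundant of the 37, at 350.0, 384 and 356 CPM in control LT-HSCs and 268, 313 and 263 with NR, and at 397, 415 and 412 and 344, 325 and 277 in ST-HSCs. The groups did not overlap within either cell type. It fell by 0.37 in LT-HSCs and 0.37 in ST-HSCs (edgeR adjusted p = 0.0138 and 0.00783).

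The difference of the NR effects between the cell types was tested as an interaction. None of the 37 was called lower or higher (0 and 0), where 0% and 0.0101% of all genes were called. At an unadjusted p under 0.05 the count was also 0 in both directions, and 0 were called with DESeq2 and with limma-voom. The fall was larger in LT-HSCs for 30 genes and in ST-HSCs for 7, and the median difference, ST-HSCs minus LT-HSCs, was 0.02 with a median SE of 0.12. The smallest p-values belonged to Ndufs7 (0.15 ± 0.11), Ndufa8 (0.14 ± 0.11) and Ndufab1 (0.12 ± 0.10), each with an edgeR adjusted p of 0.9998. With standard errors of this size and adjustment over all genes, a difference as large as the falls themselves could also go uncalled. The platelet gene Vwf, for example, differed by -1.16 ± 0.24 and was not called (edgeR adjusted p = 0.226). The test therefore does not show that the cell types responded alike.

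LT-HSCs and ST-HSCs of the same treatment were also compared. In control culture 0 of the 37 were called lower or higher in LT-HSCs, where 1.5% and 3.51% of all genes were called. With NR it was again 0, where 2.27% and 3.8% of all genes were called. None had an unadjusted p under 0.05 in either comparison, and DESeq2 and limma-voom called 0 too. The median log2 difference was 0.03 in control culture and -0.01 with NR. Ndufa4 stood out most, at -0.17 ± 0.08 in control culture and -0.16 ± 0.08 with NR (log2, LT-HSCs minus ST-HSCs), with unadjusted edgeR p-values of 0.0659 and 0.0723. Ndufa13 and Ndufb4 were the next in control culture (0.15 ± 0.08 and 0.13 ± 0.09), and Ndufa7 and Ndufs7 with NR (-0.13 ± 0.08 and -0.10 ± 0.08).

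Complex I is completed by core subunits from mitochondrial DNA, which form the proton-pumping membrane part. Of 7 such genes 6 were tested and 5 were called lower in the averaged comparison: mt-Nd1 (-0.42), mt-Nd5 (-0.33), mt-Nd2 (-0.31), mt-Nd4 (-0.28) and mt-Nd6 (-0.19). mt-Nd1, with the most counts of them, had 976 ± 40.2 CPM in control LT-HSCs and 722 ± 19.4 with NR, and 1048 ± 44.9 and 793 ± 74.2 in ST-HSCs (edgeR adjusted p of the average = 3.7e-05). mt-Nd3, at 3.13 CPM in control LT-HSCs, changed by -0.40 ± 0.14 and was not called (edgeR adjusted p = 0.0564), and mt-Nd4l had 0 counts in all libraries. The nuclear and mitochondrial parts of the complex thus both had lower counts, with medians of -0.29 and -0.32.

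The assembly factors, which build the complex and are no part of it, were more mixed. Of 15 tested, 7 were called lower and 0 higher in the averaged comparison, with a median of -0.12. Nubpl, which delivers iron-sulfur clusters to complex I, fell by 0.78 ± 0.0826, from 19.2 ± 1.01 to 11.6 ± 1.74 CPM in LT-HSCs and from 17.7 ± 1.16 to 9.88 ± 0.646 in ST-HSCs (edgeR adjusted p = 2.3e-05). This exceeds the change of any subunit gene, though that difference was not tested. Ecsit, of the membrane-arm assembly complex, fell by 0.47 ± 0.0626 (edgeR adjusted p = 0.000137). Tmem126b, of the same complex, changed by 0.18 ± 0.09, and Ndufaf7, a methyltransferase needed for assembly, by 0.00, neither called.

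Nuclear subunits of complexes II to V moved in the same direction: 37 of 39 were called lower and 0 higher in the averaged comparison, with a median of -0.33 beside -0.29 for complex I. Uqcrq of complex III changed by -0.53 ± 0.05 and Atp5b, the catalytic beta subunit of ATP synthase, by -0.44 ± 0.05 (edgeR adjusted p = 1.6e-05 and 2.2e-05).

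**Figure D4:**
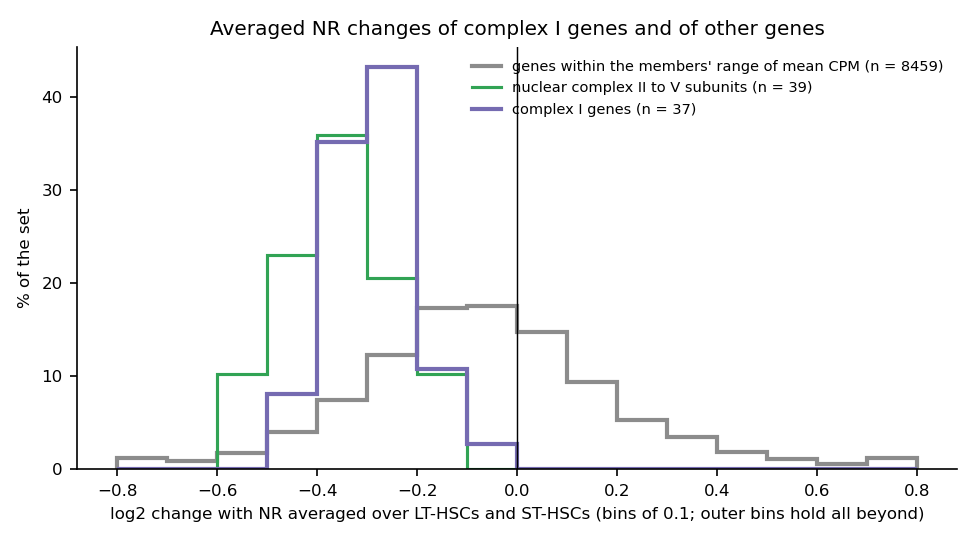
Distribution of averaged log2 changes with NR (x axis, bins of 0.1) as the percentage of each set (y axis): complex I genes (n = 37, purple), nuclear complex II to V subunits (n = 39, green) and the 8459 genes within the complex I genes' range of mean CPM (grey). The complex I genes lie between -0.47 and -0.09, and 15.9% of the grey genes lie at or below their median.

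Markers of other blood cells moved with NR as well. The summed CPM of 8 monocyte and macrophage genes was 57.4 to 60.01 in control LT-HSCs and 79.0 to 91.9 with NR, and 75.8 to 77.5 and 153 to 197 in ST-HSCs, mostly from Fcer1g and Cd68, with Adgre1 under 1 CPM in every group. The sum of 7 megakaryocyte and platelet genes was 3156 to 3602 in control LT-HSCs and 2005 to 2666 with NR, and 3157 to 3477 and 1928 to 2457 in ST-HSCs. Pf4, Itga2b and Vwf carried that drop and were called lower in both cell types, while Ppbp (0.14 and 0.22) and Itgb3 (0.17 and 0.12) had positive changes that were not called. The sum of 7 erythroid genes was 92.4 to 98.0 and 67.9 to 76.5 in LT-HSCs and 50.1 to 60.7 and 34.5 to 39.9 in ST-HSCs, with Hba-a1 and Hba-a2 under 10 counts in every library. Among these Epor was the 1 gene called (-0.71 in LT-HSCs and -1.04 in ST-HSCs), and Hbb-bs had positive changes in both cell types (0.27 and 0.92) that were not called. The sum of 8 lymphoid genes, nearly all from Nkg7, was 17.1 to 22.8 and 7.79 to 10.5 in LT-HSCs and 75.4 to 80.3 and 32.7 to 38.2 in ST-HSCs. Of the 5 lymphoid genes tested, only 1 had a change below 0 in each cell type. It was called lower, and 0 were called higher. The median change of the 5 was 1.32 in LT-HSCs and 0.17 in ST-HSCs. The sums of 9 stem cell genes (3334 to 4172 over all libraries), 8 granulocyte and mast cell genes and 6 stroma genes separated NR from control libraries in at most 1 of the cell types. Their part in the lower complex I levels was not tested.

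The size of the fall moved with the scaling between libraries, while its distance from other genes moved less. The averaged median of the complex I genes was -0.29 with TMM factors and -0.23 with relative log expression factors, where the median of genes at 5 CPM or more was -0.07 and 0.00. With these factors 17 of the 37 were called lower in LT-HSCs, 12 in ST-HSCs and 30 in the average, where 6.01%, 7.83% and 11.9% of all genes were. With DESeq2 it was 25, 18 and 31, where 13.6%, 14.5% and 18.8% of all genes were. No setting called any of the 37 higher. Counts within a cell type rested on single libraries. In LT-HSCs 5 were called when control sample 2 or NR sample 1 was left out and 11 when NR sample 3 was, with 4.21%, 4.52% and 4.76% of all genes called lower. In ST-HSCs 11 were called without control sample 1 or 2 and 2 without NR sample 3, with 7.44%, 8.26% and 5.09% of all genes called lower.

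The averaged comparison, with the same genes tested, gave 24 to 32 without any 1 library, where 10.9% to 15.9% of all genes were called lower. Of the 32 complex I genes called lower with all libraries, 24 kept their call in all 12 such fits. Ndufs3 lost its call without NR ST-HSC sample 3 (edgeR adjusted p = 0.069) and without NR LT-HSC sample 1 (0.063), Ndufs5 lost it in 3 of the 12 and Ndufb6 in 10. Ndufb2 kept its call in 6 of the 12, and Ndufa7, Ndufa11, Ndufa12 and Ndufb3 each kept theirs in 10. Where the filter was also applied again to the remaining 11 libraries, which let 20217 to 22205 genes into the test, 0 to 3 were called lower in LT-HSCs, 0 to 1 in ST-HSCs and 10 to 25 in the average. The share of all genes called lower fell too, to between 0.455% and 2.06%, between 1.80% and 3.43% and between 5.72% and 8.17%. Then 10 of the 32 kept their call in all 12 fits: Ndufs1, Ndufs4, Ndufs6, Ndufa1, Ndufa4, Ndufa9, Ndufa10, Ndufab1, Ndufb7 and Ndufc1. Among the others Ndufv2 kept it in 11, Ndufb5 in 6, Ndufv1 in 4, Ndufs8 and Ndufb4 in 3, Ndufs7 in 2, Ndufs3 in 1 and Ndufs5 in 0. Over the 10 other settings, 16 of the 32 kept their call in every one.

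**Figure D5:**
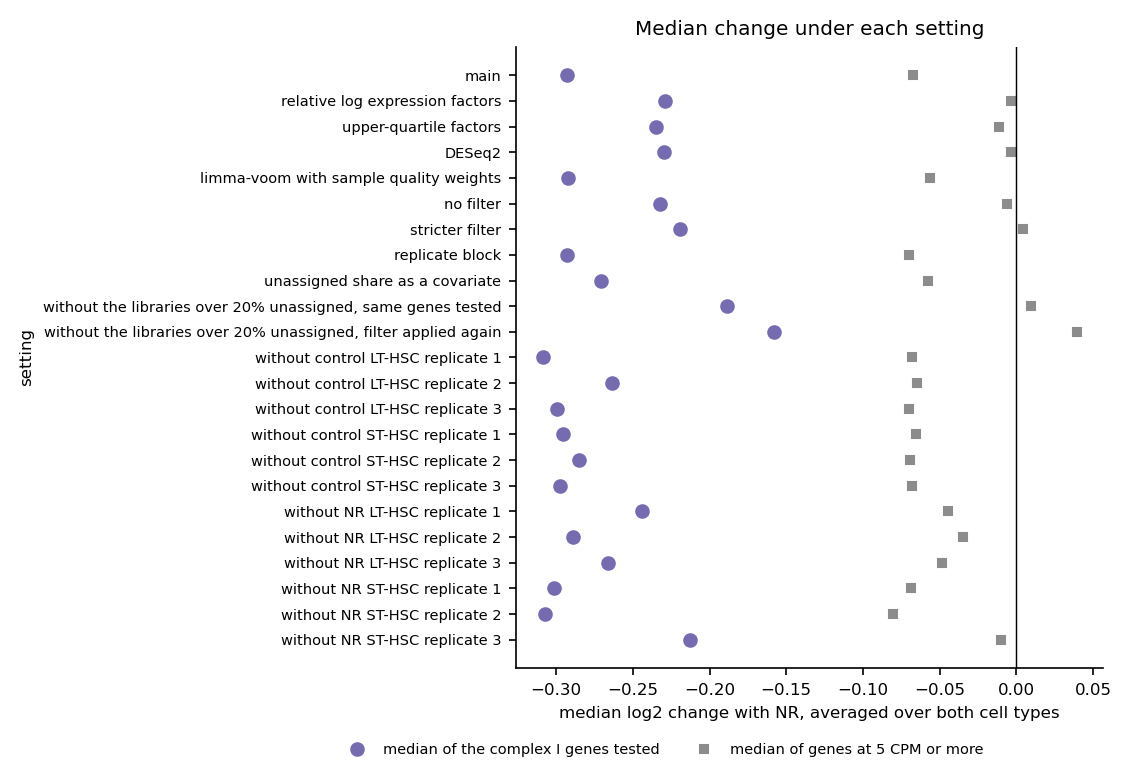
Median averaged log2 change with NR (x axis) under each setting (y axis), for the complex I genes tested (purple circles) and for genes at 5 CPM or more (grey squares). The circles run from -0.31 to -0.16 and lie left of the squares in every setting.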

How the data were processed

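Bulk RNA was sequenced from 12 samples in 4 groups, taken from the labels. Per the labels' protocols, cDNA was amplified from 2.5 ng RNA with the SMART-seq v4 kit and tagged with Nextera XT. The authors deposited 1 table of read counts per Ensembl gene. The submitters' processing notes name FastQC 0.11.2 for read quality, STAR 2.5.0b for alignment and HTSeq 0.6.1 for counting. Build, annotation release, strand setting and read filters were not given in the sources used here. Symbols, exon lengths and coordinates come from GENCODE M21 (GRCm38), which named 53274 of 53465 genes. All sample columns were used (0 left out). Reads that HTSeq matched to no gene feature (8.69% to 28.5%) and ambiguous reads (3.30% to 4.38%) entered neither library sizes nor tests.

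Counts were tested with edgeR 4.0.16 (quasi-likelihood, two-sided, TMM) with a mean for each of the 4 groups. The filter filterByExpr, with a minimum count of 10 and a minimum total of 15, kept 19830 genes. Calls are at a Benjamini-Hochberg adjusted p under 0.05 over all genes of a comparison. The fit had 8 residual degrees of freedom and a biological coefficient of variation of 0.402. Levels are TMM-scaled CPM with SD, and changes are log2 with SE. Alternatives were other scaling factors (relative log expression, upper quartile), other tools (DESeq2 1.42.0, voom of limma 3.58.1), no filter or a mean of 5 CPM, and a fit of only the pair of groups. Further ones were the sample number as a block, the unassigned share as a covariate, and fits without the libraries over 20% unassigned or without each library in turn. The edgeR step was tested on simulated data. No pair of libraries within a group agreed within sampling noise.

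The complex I genes, pathway lists, markers, motifs and alternatives were chosen with earlier results of these data known. Named genes were core subunits, the 3 lowest and 3 highest changes of each NR comparison, genes left out by the filter or in no arm, and the smallest p-values of the other comparisons and pathway lists. One gene that this rule names is not reported here. Values in every library are for the 2 largest averaged falls of each arm. Ndufs4, Ndufab1, Ndufb4 and Ndufs5 as examples and the printed sequences were chosen after their values were seen. Of the list members, Ndufb1, Coa1 and the erythroid marker Ahsp were not matched by symbol. Same-numbered NR and control libraries deviated together in LT-HSCs (correlations of 0.25 to 0.71), so the numbers were taken to pair them there. In ST-HSCs (-0.06 to 0.67) they were not. Same-numbered LT-HSC and ST-HSC libraries also deviated together with NR (0.15 to 0.84), but not in control culture (-0.23 to 0.43). The main fit treats all 12 libraries as independent. None of its p-values allow for such links, those within LT-HSCs, the averaged and the interaction ones included.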

Additional observations from a re-analysis of the deposited data

How the results depend on the processing

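All values here are of the 37 tested complex I genes unless another gene is named. Without the libraries over 20% unassigned, 12 were called lower in LT-HSCs, 3 in ST-HSCs (median change -0.15) and 20 in the average (-0.19) with the same genes tested, and 8, 2 (-0.13) and 16 (-0.16) with the filter applied again. The share of all genes called with the filter applied again is not given here. Those counts alone therefore do not set these genes apart from others. With no filter 14 were called in LT-HSCs, 10 in ST-HSCs and 26 in the average, where 2.04%, 2.85% and 4.48% of all genes were. Leaving out each library in turn, with and without a new filter, gave 0 to 19 in LT-HSCs, 0 to 20 in ST-HSCs and 10 to 32 in the average. These ranges pool both kinds of fit, and shares of all genes are given above for the fits named there. Median changes then ran from -0.38 to -0.21, from -0.32 to -0.12 and from -0.31 to -0.19, that of the difference of NR effects from -0.0203 to 0.15, and that of LT-HSCs against ST-HSCs from -0.0175 to 0.13 in control culture and from -0.11 to 0.04 with NR. A new filter on fewer samples let more genes into the test, up to 22205, and gave 0 to 3, 0 to 1 and 10 to 25 calls, with fewer calls over all genes as well. The cause was not tested.

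With the sample number as a replicate block, 30 were called lower in LT-HSCs, 27 in ST-HSCs and 34 in the average, where 10.2%, 14.04% and 18.5% of all genes were, with 0 in the other comparisons. In ST-HSCs the numbers were not taken to pair the samples, though 2 of 3 NR libraries deviated most like the control of their own number. Same-number correlations there were -0.06 to 0.67, and the labels do not settle whether the samples are paired.

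Genes near 0 changed sign. Without the libraries over 20% unassigned, 32 of the 37 changes in ST-HSCs stayed below 0 in either form of that fit. In ST-HSCs, Ndufa8 was at 0.0092 with relative log expression factors, 0.0094 with DESeq2, 0.0074 with no filter and 0.011 with the stricter filter. Without the libraries over 20% unassigned, Ndufa13, Ndufb11 and Ndufa8 in ST-HSCs were at 0.028, 0.053 and 0.053 with the same genes tested and at 0.050, 0.077 and 0.076 with the filter applied again. In the same 2 settings the averaged change of Ndufb11 was 0.0021 and 0.033 and the difference of NR effects of Ndufs5 was 0.032 and 0.016, and in the second the averaged change of Ndufv3 was 0.0097. The averaged change of the assembly factor Ndufaf7 was -0.0083 with limma-voom. Leaving out each library in turn gave, in ST-HSCs, -0.104 to 0.055 for Ndufa13, -0.156 to 0.082 for Ndufb11 and -0.103 to 0.081 for Ndufa8. It gave -0.13 to 0.0083 for Ndufb11 and -0.00836 to 0.090 for Ndufaf7 in the average, and -0.19 to 0.039 for Ndufv1, -0.18 to 0.078 for Ndufa1 and -0.12 to 0.078 for Ndufs5 in the difference of NR effects. The cause was not tested.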
